A study of Mus musculus with 38 samples.

Results

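Transcripts of the anterior pituitary were read in RNA from the hypothalamus of female FVB/N mice: the hormone genes Prl and Gh, the glycoprotein hormone subunit genes Cga, Lhb, Tshb and Fshb, the receptor genes Ghrhr and Gnrhr, and the transcription factor genes Pitx1 and Pou1f1. Of these 10 genes, 9 had a probe set that the platform annotation assigns to 1 gene symbol, each of them exactly 1, out of 19937 gene symbols and 34760 probe sets. Pou1f1 was not analysed here. The genes were chosen by name, with earlier results of these data known.

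The values came from 38 Affymetrix arrays, 1 per mouse. In the adeno-associated virus (AAV) experiment, 5 mice (18Q) had received a serotype 5 vector for an 853 amino acid human huntingtin (HTT) fragment with 18 CAG repeats, 8 mice (79Q) had received the same fragment with 79 repeats, and 5 WT mice had received no injection. Both vectors used the human Synapsin-1 promoter, were injected into the hypothalamus on both sides at 8 weeks of age, and were followed for 4 weeks, so that all 3 groups were 12 weeks old. An empty vector group was not analysed here, so injection and HTT fragment cannot be told apart in a comparison with uninjected WT mice. BACHD mice, which carry full-length human mutant HTT with 97 repeats and express it ubiquitously, were taken at 2 months (6 mice, against 6 WT littermates) and at 10 months (5 mice, against 3 WT littermates). Values are log2 intensities, so that a difference of 1 is a 2-fold difference. Since the arrays of the AAV experiment, of 2 months and of 10 months were normalized as separate sets, levels were compared only within a set. P-values set a difference between groups, or a relation between genes, against the spread between mice. In the limma tests of group differences, that spread was pooled over all groups of a set and drawn toward that of all probe sets.

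The anterior pituitary lies just under the hypothalamus and is joined to it by a stalk and by the pars tuberalis, a thin sheet of pituitary cells that lines the median eminence. Prolactin and growth hormone come from lactotrophs and somatotrophs, which share an origin that depends on the transcription factor POU1F1. Cga encodes the alpha subunit common to thyroid-stimulating hormone and both gonadotropins, and it pairs with the beta subunits encoded by Lhb, Fshb and Tshb. Cells of the pars tuberalis are known to make Cga and Tshb.

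Of the 9 genes measured, 6 had a promoter in the RefSeq table for GRCm38.p6, and those of Prl and Cga are shown because the results turn on these genes. Both are the 250 bases before the start site on the plus strand, Prl at chr13:27057320-27057569 and Cga at chr4:34893529-34893778. Capitals mark 3 searched motifs on either strand: TATNCAT, the letters of a POU1F1 element, TGANGTCA, those of a cyclic AMP response element, and TATAAA, the TATA box, whose matches on the 2 strands overlap in Prl.
Prl: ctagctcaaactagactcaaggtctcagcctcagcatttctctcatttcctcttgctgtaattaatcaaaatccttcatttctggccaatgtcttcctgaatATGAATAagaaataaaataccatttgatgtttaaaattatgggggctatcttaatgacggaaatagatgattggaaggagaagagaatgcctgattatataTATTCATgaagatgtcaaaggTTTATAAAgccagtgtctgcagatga
Cga: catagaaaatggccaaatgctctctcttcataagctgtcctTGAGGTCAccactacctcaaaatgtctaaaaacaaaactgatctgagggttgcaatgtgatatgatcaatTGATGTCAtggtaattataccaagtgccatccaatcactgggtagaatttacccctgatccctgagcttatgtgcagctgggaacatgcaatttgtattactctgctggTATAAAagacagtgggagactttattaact

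The letters TATNCAT occurred 2 times before Prl and 0 times before Cga, and TGANGTCA occurred 2 times before Cga and 0 times before Prl. Of the 32851 promoter windows in the table, 7.92% held TATNCAT, 7.49% held TGANGTCA and 12.4% held TATAAA. The nearer TATNCAT match in Prl lay 47 to 41 bases before the start site, and the nearer TGANGTCA match in Cga lay 139 to 132 bases before it. None of the other 4 promoters (Lhb, Tshb, Fshb and Gnrhr) held either of these motifs, while all 4 held TATAAA on at least 1 strand. The matches are descriptions of the letters in these windows.

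Prl, which encodes the hormone of lactation, spanned the widest range of the 9 genes. In 18Q mice its log2 intensity was 10.23, 11.12, 11.76, 6.75 and 6.32. In 79Q mice the lowest was 5.94, the median 6.68 and the highest 10.52. Uninjected WT mice had 6.05, 5.64, 6.19, 6.60 and 6.03. The 18Q replicates 1, 2 and 3 and the 79Q replicates 5 and 8 stood at 10.23 or above, every other array of the experiment stood at 7.53 or below, and the groups overlapped.

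The same width was present in the transgenic mice and their littermates. Prl at 2 months ranged between 5.15 and 12.21 in BACHD mice (median 8.44), and between 5.23 and 13.58 in WT mice (median 8.30). The highest WT mouse lay 327-fold above the lowest on the linear scale. At 10 months Prl was 5.58, 11.07, 5.76, 5.42 and 8.62 in BACHD mice and 5.26, 5.51 and 10.32 in WT mice. Both genotypes therefore held arrays at either end, and within-group differences were far larger than those between group means.

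Gh encodes growth hormone. Its log2 intensity was 9.06, 9.52, 10.44, 7.04 and 7.11 in 18Q mice. In 79Q mice it ranged between 6.63 and 9.58 with a median of 7.15. In uninjected WT mice it lay between 6.94 and 7.04, a range of 0.11. The 5 highest arrays of the AAV experiment for Gh were the 5 highest for Prl.

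At 2 months Gh ranged between 6.78 and 11.78 in BACHD mice (median 7.93) and between 6.94 and 13.66 in WT mice (median 8.15). At 10 months it was 6.76, 9.64, 6.68, 6.80 and 7.48 in BACHD mice and 6.50, 6.72 and 8.93 in WT mice. The 3 highest arrays for Gh at 10 months were again the 3 highest for Prl.

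Cga, in the AAV experiment, was high on other arrays than Prl and Gh for the most part. It was 7.90, 10.30, 6.48, 9.36 and 8.74 in 18Q mice. In 79Q mice it ranged between 6.19 and 10.19 with a median of 7.79. Uninjected WT mice had 9.54, 8.56, 6.66, 8.69 and 9.28. Here the WT mice spread 7.37-fold, whereas their Gh spread 1.08-fold, and 2 of the 5 highest Cga arrays of the experiment were among the 5 highest for Prl.

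Cga at 2 months ranged between 6.83 and 10.65 in BACHD mice (median 9.21) and between 8.11 and 11.99 in WT mice (median 8.99). At 10 months it was 9.29, 8.80, 10.30, 6.91 and 10.82 in BACHD mice and 6.10, 8.28 and 8.31 in WT mice. Of the 5 BACHD mice, 4 were above all 3 WT mice, and BACHD replicate 4 was between the WT values. The 2 highest Cga arrays were also the 2 highest for Prl at 2 months (WT replicate 5 and BACHD replicate 4), whereas 0 of the 2 highest were at 10 months.

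**Figure D1:**
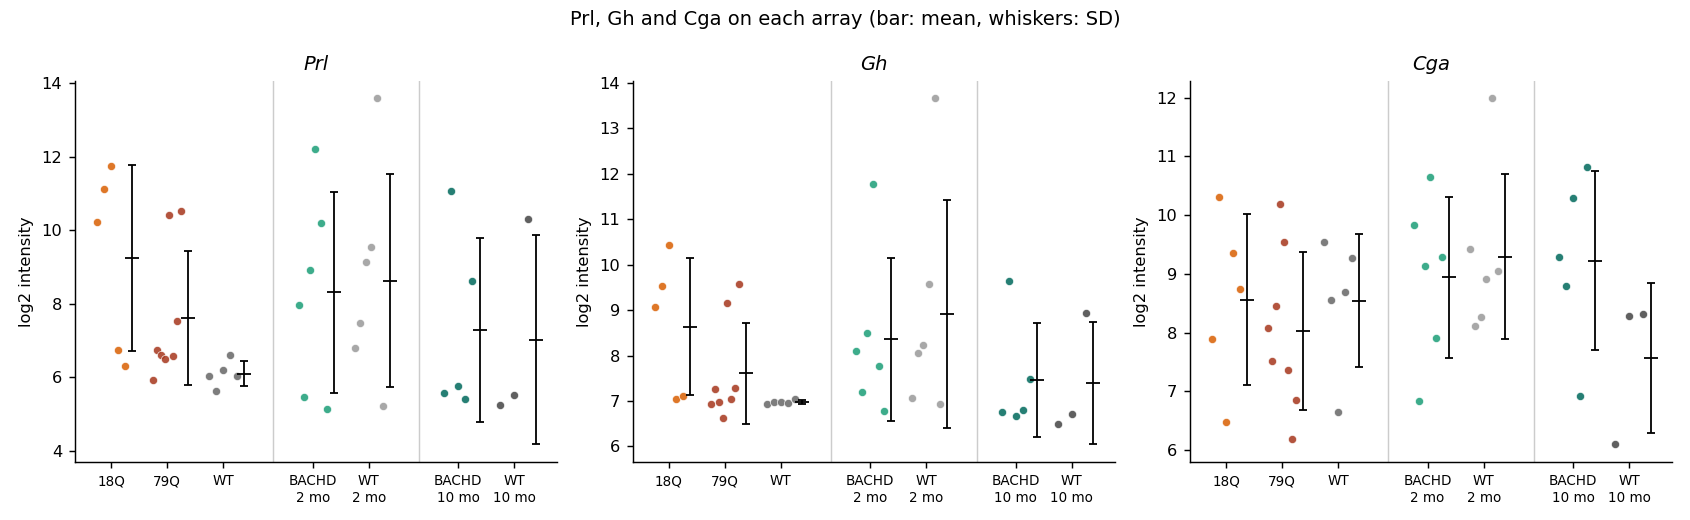
Log2 intensity of Prl, Gh and Cga on each of the 38 arrays (points), by group, with the group mean (bar) and SD (whiskers); grey lines separate the 3 sets of arrays. Prl and Gh share their high arrays in 18Q and 79Q mice (Prl at 10.23 or above on 5 arrays), while uninjected WT mice span 6.94 to 7.04 for Gh and 6.66 to 9.54 for Cga.

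To place this spread, the SD within groups was ranked over all 34760 probe sets. Prl ranked 4 in the AAV experiment, 1 at 2 months and 1 at 10 months, with SDs of 1.81, 2.81 and 2.62, which were 16.0, 18.5 and 25.8 times the median SD. Gh ranked 26, 2 and 3, and Cga 14, 6 and 2. None of the other 6 genes had a rank below 145, that of Lhb at 2 months. Prl, Gh and Cga were thus among the most variable probe sets between mice of 1 group.

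The remaining genes spanned narrower ranges than Prl, Gh and Cga on most arrays. Beside all probe sets they were not all flat. The SD of Fshb was 1.78 (AAV experiment), 1.99 (2 months) and 3.92 (10 months) times the median SD. At 10 months that of Lhb was 2.29 times the median SD and that of Gnrhr 0.97 times. Lhb, the beta subunit of luteinizing hormone, lay between 7.55 and 8.36 on all arrays except BACHD replicate 4 (8.83) and WT replicate 5 (10.55), both at 2 months. Fshb, the beta subunit of follicle-stimulating hormone, lay between 5.51 and 6.70. Tshb, the beta subunit of thyroid-stimulating hormone, lay between 4.57 and 5.38, and its mean was at the percentiles 14.9, 16.8 and 14.8 of all probe sets in the 3 sets of arrays. Beside the 3 hormones above, these subunits moved over a small part of the scale.

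Ghrhr, the receptor through which somatotrophs respond to growth hormone-releasing hormone, lay between 7.35 and 8.20 in all 7 groups. Gnrhr, the receptor of gonadotrophs for gonadotropin-releasing hormone, stayed between 4.56 and 5.72 except at 6.90 in WT replicate 5 of 2 months. Its mean was at the percentiles 17.0 (AAV experiment), 21.7 (2 months) and 13.4 (10 months) of all probe sets, so its level was low, as that of Tshb was. Pitx1, a transcription factor of early pituitary development, lay between 6.44 and 7.11. No receptor or transcription factor gene reached the spread of Prl, Gh or Cga in any set.

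Single mice stood out across genes. WT replicate 5 at 2 months had the highest value of all 12 arrays of its set for all 9 genes, among them Prl 13.58, Gh 13.66, Cga 11.99 and Lhb 10.55. In the AAV experiment, 79Q replicate 7 was the lowest of 18 arrays for 5 genes (Cga, Lhb, Fshb, Ghrhr and Pitx1). At 10 months, WT replicate 1 was the lowest of 8 arrays for 5 genes (Prl, Gh, Cga, Lhb and Gnrhr). No other array held more than 3 lowest or highest values in its set.

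**Figure D2:**
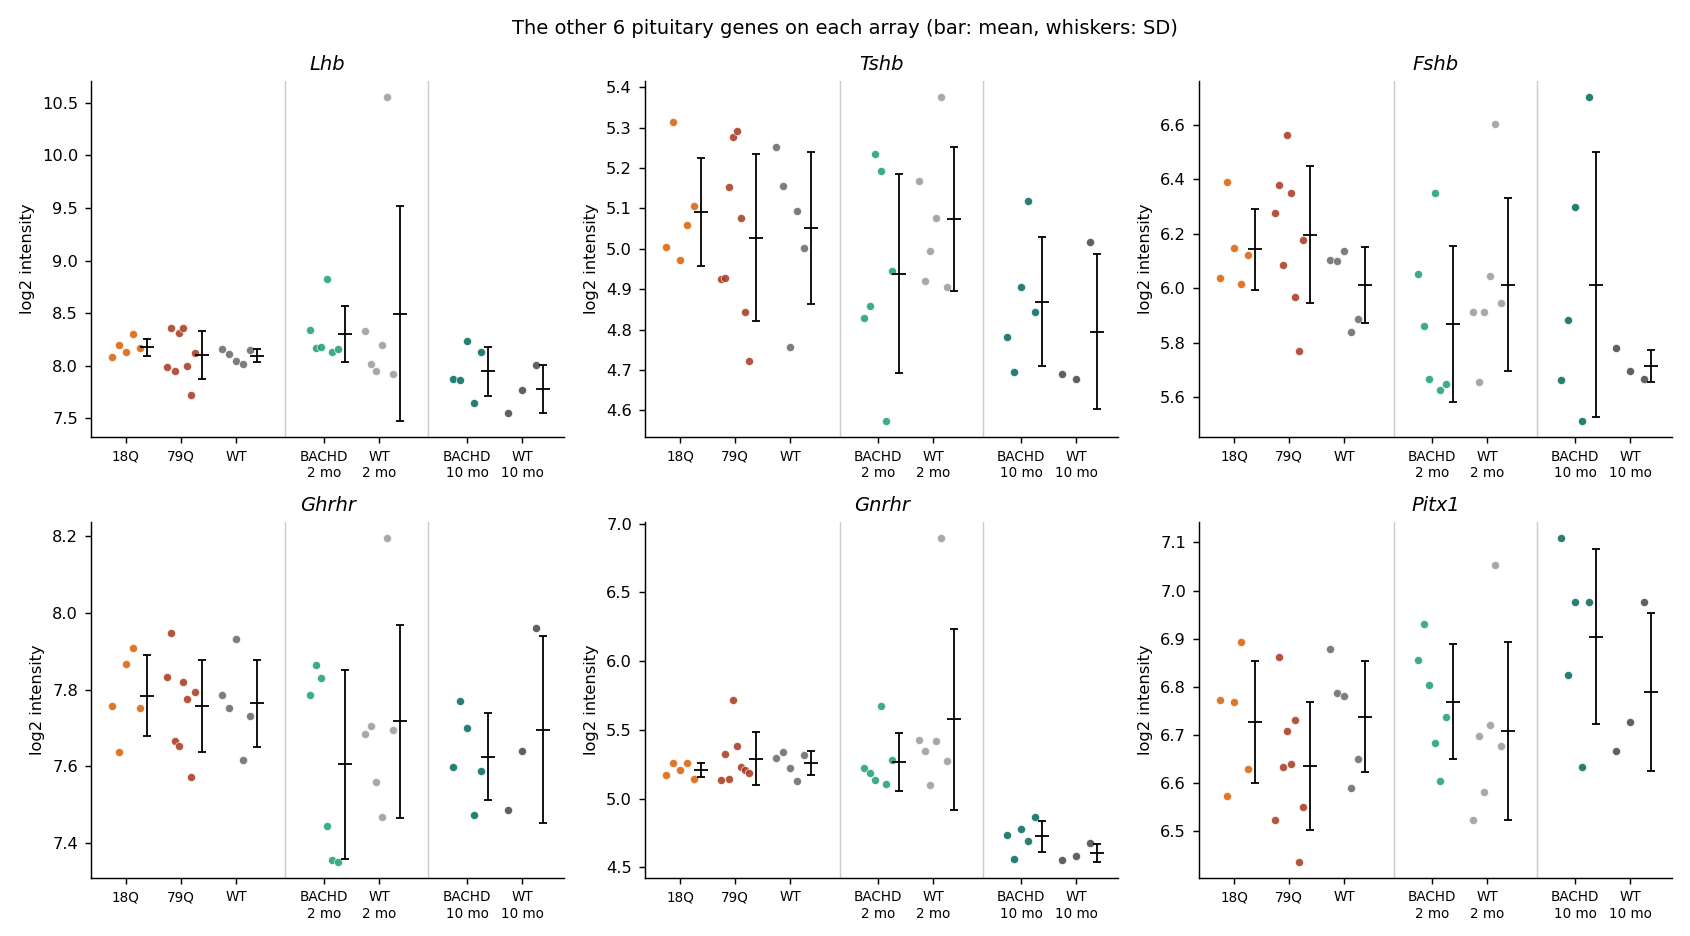
Log2 intensity of Lhb, Tshb, Fshb, Ghrhr, Gnrhr and Pitx1 on each array, by group, with mean and SD; each panel has its own vertical scale. WT replicate 5 of 2 months is the top point of its set in all 6 panels, at 10.55 for Lhb and 6.90 for Gnrhr.

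Whether the hormone and identity genes moved together between mice was asked with values centred on their group mean, so that differences between groups do not enter. In the AAV experiment and at 10 months the Prl values fell into 2 clusters, separated by gaps of 2.69 and 2.86 that made up 44.0% and 49.2% of the range. No r over all arrays was therefore tested there for Prl or Gh. At 2 months the largest gap was 24.0% of the range, and all 12 arrays were used.

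At 2 months Gh followed Prl with a Pearson r of 0.907 (permutation p = 9.0e-05, adjusted p = 0.0029 over 32 relations) and a Spearman rho of 0.923 (adjusted p = 0.0032). Without the 2 arrays farthest from the median of Prl (WT replicate 5 and BACHD replicate 4) r was 0.800. Within BACHD mice alone r was 0.848 (n = 6, exact permutation p = 0.0111, adjusted p = 0.092), and within WT mice alone 0.960 (n = 6, exact permutation p = 0.00139, adjusted p = 0.022). Below the gap of the AAV experiment, over 13 arrays, Gh and Prl gave an r of 0.456 (permutation p = 0.207), and the 5 arrays at 10 months below the gap were too few for a test. Over all arrays of a set the relation was therefore tested at 2 months only.

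The other members followed Prl less at 2 months, and none of their relations passed the threshold. Cga gave r = 0.611, Lhb 0.711, Fshb 0.668 and Gnrhr 0.665. Without WT replicate 5 and BACHD replicate 4 these became -0.0090, 0.101, -0.032 and -0.353. Thus these 4 values rested on the 2 arrays with the most Prl, while that of Gh did not. Tshb, Ghrhr and Pitx1 gave 0.458, 0.178 and 0.252.

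**Figure D3:**
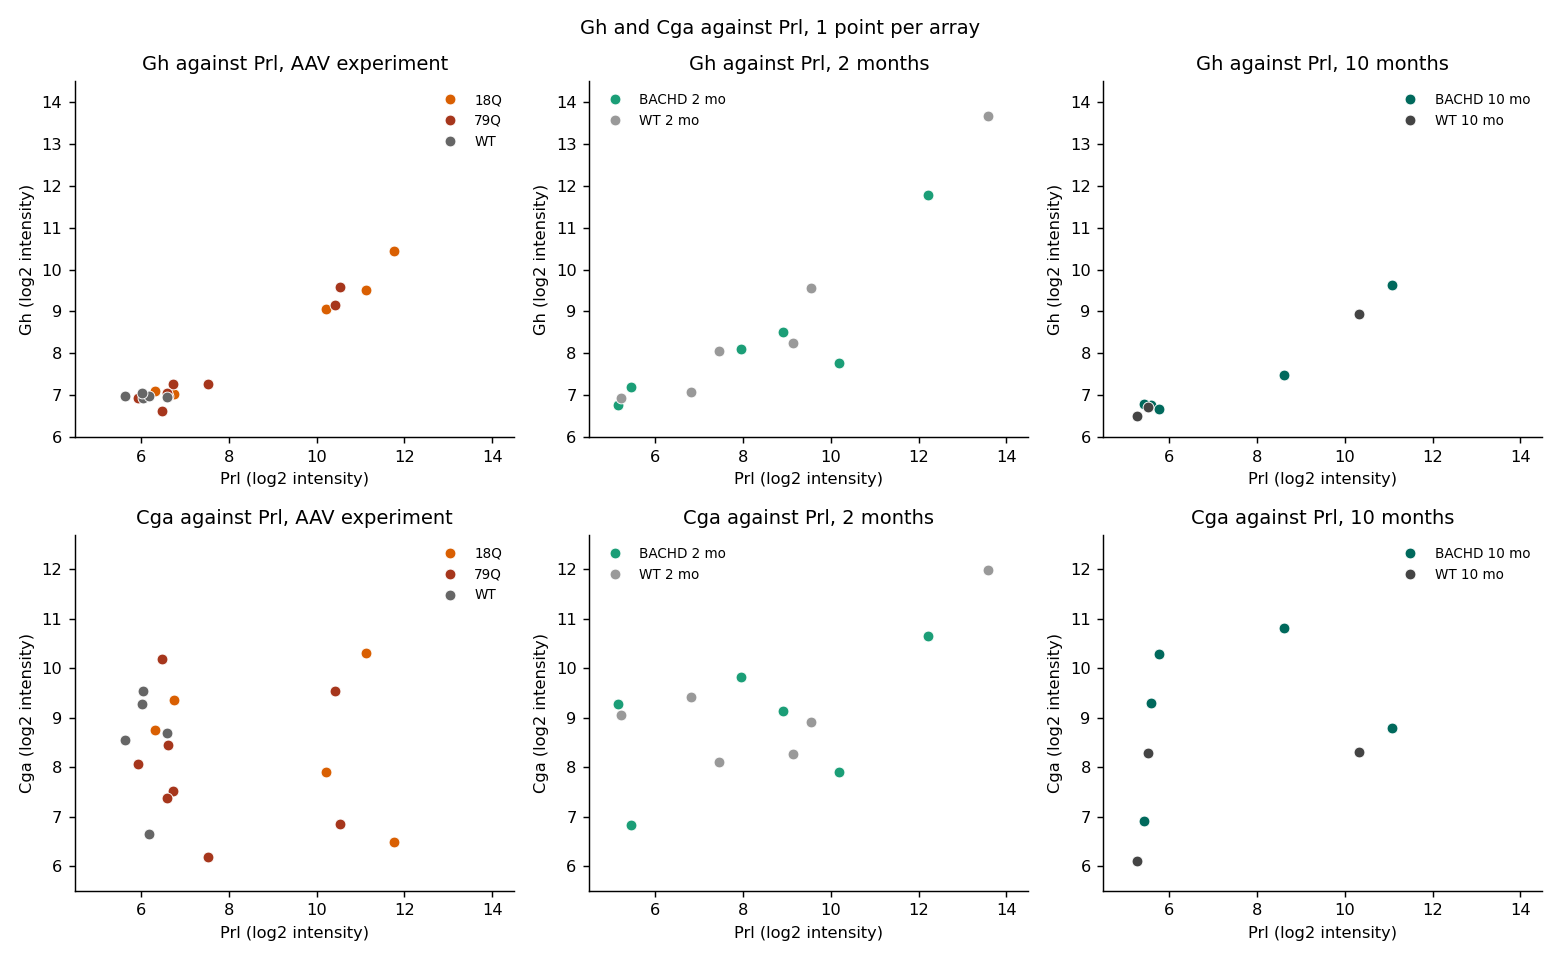
Gh (top row) and Cga (bottom row) against Prl, in log2 intensity, with 1 point per array, by set and group. Gh climbs with Prl at 2 months, with the top array at 13.58 for Prl and 13.66 for Gh, and in the other sets the arrays form a low and a high cluster. In uninjected WT mice Cga spans 6.66 to 9.54 while Prl stays between 5.64 and 6.60.

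Cga moved with Lhb in all 3 sets by r, and with Gnrhr, Tshb and Fshb in some of them. This family of 18 relations was chosen after the values were seen. In the AAV experiment r was 0.847 with Tshb (18 arrays, permutation p = 7.0e-05, adjusted p = 0.00126, rho 0.833), 0.561 with Lhb and 0.555 with Gnrhr (both adjusted permutation p = 0.049). With Fshb it was 0.490 (adjusted permutation p = 0.108), which did not pass. At 2 months r was 0.792 with Lhb, 0.798 with Gnrhr, 0.771 with Fshb and 0.693 with Tshb, with adjusted p-values of 0.0079, 0.016, 0.039 and 0.049. At 10 months r was 0.910 with Lhb (8 arrays, exact permutation p = 0.0083, adjusted p = 0.038) and -0.183 with Tshb. There Fshb (r = 0.711, adjusted p = 0.136 by exact permutation) and Gnrhr (r = 0.636, adjusted p = 0.190 by exact permutation) did not pass.

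In all, 8 of the 18 relations of Cga passed the threshold by r and 4 by rho. Those 4 were Tshb in the AAV experiment, Lhb and Gnrhr at 2 months, and Lhb at 10 months. Without the 2 arrays farthest from the median of Cga these 4 gave r of 0.867, 0.786, 0.769 and 0.869. Ghrhr and Pitx1 passed with Cga in no set. Among the 21 pairs of the 7 genes other than Prl and Gh, 7 had an r above 0.5 in all 3 sets, namely Cga with Lhb and with Gnrhr, Fshb with Lhb and with Gnrhr, Lhb with Gnrhr and with Pitx1, and Ghrhr with Pitx1. At 2 months WT replicate 5 had the highest value for all 9 genes. For the pairs that do not include Cga, r was not computed without that array, so how far these values rest on it was not tested.

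**Figure D4:**
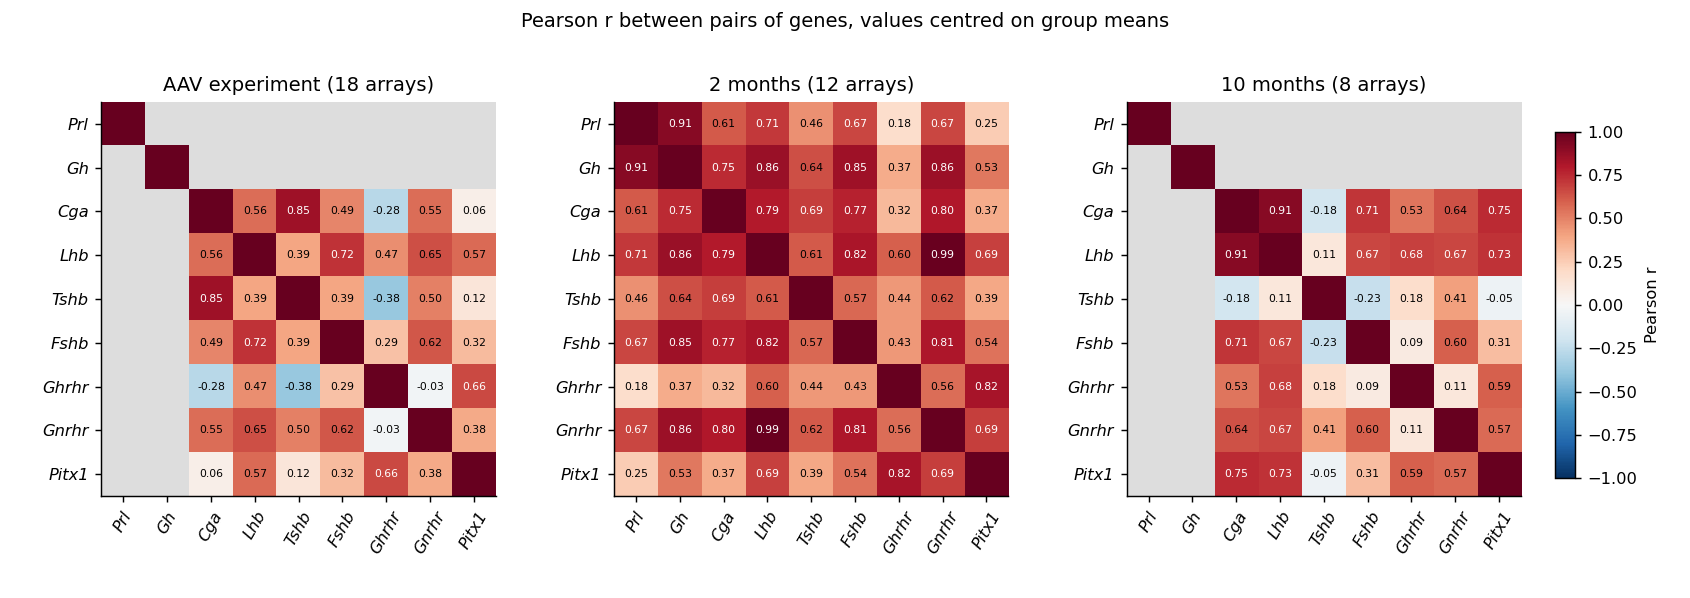
Pearson r for each pair of the 9 genes after centring on group means, in the AAV experiment (18 arrays), at 2 months (12) and at 10 months (8). Grey cells are left without a value because Prl and Gh fell into clusters there; at 2 months Prl and Gh share an r of 0.91, and Cga and Lhb have 0.56, 0.79 and 0.91 across the sets.

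All other gene symbols were then ordered by the lowest of their 3 within-set r with Prl, which in the AAV experiment and at 10 months mostly contrasts high- and low-Prl arrays. Gh ranked 1 of 19936 with a lowest r of 0.907. The next was Fmod, a fibril-binding proteoglycan of connective tissue, at 0.481, then Efemp1, an extracellular matrix protein, at 0.465. Evc2, Zbtb40, Mpzl2, Creld2, Gm5546, Meltf, Akr1c14 and Ifitm2 had between 0.417 and 0.368. No other gene came near the likeness of Gh to Prl, and Cga ranked 4390.

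The same order made for Cga, chosen after its values were seen, began with Ces1d, a carboxylesterase, whose r with Cga was 0.954 in the AAV experiment, 0.889 at 2 months and 0.907 at 10 months. Fndc3c1, Apoc3, an apolipoprotein, Inmt, a methyltransferase, and Dcn, a matrix proteoglycan, followed, with lowest r of 0.826, 0.775, 0.760 and 0.736. Lhb, Gnrhr and Fshb ranked 12, 13 and 19 of 19936. Prl ranked 4171 and Gh 6137, each by its r over all arrays of the AAV experiment. Those arrays form a low and a high cluster for Prl and Gh.

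Group differences were tested with limma on all 34760 probe sets of a set. In 18Q vs. WT, Prl averaged 9.23 ± 2.53 in 18Q mice and 6.10 ± 0.35 in WT mice (SD, n = 5 each), a log2 fold change of 3.13 (SE 1.06, 95% interval 0.91 to 5.35), or 8.77-fold, with a limma p of 0.0084 and an adjusted p of 0.171. Gh averaged 8.63 ± 1.51 in 18Q mice and 6.98 ± 0.04 in WT mice, a log2 fold change of 1.65 (SE 0.63). Over all probe sets limma gave it a p of 0.018 and an adjusted p of 0.251. For each of these genes 4 of 5 mice given 18Q were above all 5 WT mice, and the exact permutation test gave p = 0.0159, where the smallest possible was 0.0079. The lowest of those 4 was close to the highest WT mouse. It stood at 6.75 against 6.60 for Prl (18Q replicate 4) and 7.11 against 7.04 for Gh (18Q replicate 6). Prl ranked 20 of 34760 by the size of its fold change and 1697 by p.

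No member was called in 18Q vs. WT (0 of 9, adjusted p under 0.05 by limma), against a background of 2.11% of all probe sets, and 2 of 9 (Prl and Gh) were under an unadjusted 0.05, against 12.6%. The call for Prl changed when 1 mouse was left out. Without 18Q replicate 6 its log2 fold change was 3.86 with an adjusted p of 0.048 by limma, and without 18Q replicate 3 it was 2.50. Cga differed by 0.01 (95% interval -1.61 to 1.63), and the other 6 genes by between -0.05 and 0.13. In bulk tissue, a change in the number of cells of a type and a change in RNA per cell cannot be told apart.

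Markers of other tissue were set beside this comparison. Meningeal fibroblast markers were above WT for 8 of 8 genes in 18Q mice (median log2 fold change 0.12, 2 of 8 at an unadjusted p under 0.05 by limma against a background of 12.6%, 0 called), with a log2 summed level of 12.2 to 12.6 in 18Q mice and 12.0 to 12.3 in WT mice. Igf2, the growth factor of that list, differed by 0.38 (SE 0.10, adjusted p = 0.060 by limma). At 2 months the mean of that list had an r of 0.364 with Prl (permutation p = 0.281, adjusted p = 0.844 over 6 marker lists, rho 0.280, r without 2 arrays -0.063). Thalamus markers were above WT for 5 of 8 genes (median 0.04, 1 of 8 at an unadjusted p under 0.05, 0 called), with a log2 summed level of 11.4 to 12.0 in 18Q mice and 11.4 to 11.7 in WT mice. Among them Prkcd, a protein kinase C gene, differed by 0.65 (SE 0.28, adjusted p = 0.322 by limma). The medians of the hypothalamus, pars tuberalis, tanycyte and choroid plexus lists were -0.17, -0.09, -0.03 and -0.08. The part of these tissues in the Prl difference was not tested.

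In 79Q vs. WT, Prl averaged 7.60 ± 1.82 in 79Q mice (n = 8) and 6.10 ± 0.35 in WT mice (SD, n = 5), a difference of 1.50 (SE 0.95, 95% interval -0.50 to 3.51, adjusted p = 0.529 by limma). Of the 8 mice given 79Q, 5 were above all WT mice, the lowest of them at 6.62 against a highest WT value of 6.60. Gh differed by 0.63 (95% interval -0.57 to 1.83) and Cga by -0.52 (95% interval -1.98 to 0.94). The difference of Gh was 0.35 without 79Q replicate 8, and that of Cga was -0.26 without 79Q replicate 7 and -0.99 without WT replicate 4. The largest of the other differences was that of Fshb, 0.18 (SE 0.11). No member was called (0 of 9, background 2.07%) and 0 of 9 were under an unadjusted 0.05 (background 14%).

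In 79Q vs. 18Q, which share the vector and the injection, Prl was 1.63 lower in 79Q mice on the log2 scale (log2 fold change -1.63, SE 0.95, 95% interval -3.63 to 0.37) and Gh differed by -1.02 (95% interval -2.23 to 0.18). By size these ranked 3 and 15 of 34760. Without 18Q replicate 3 they were -0.998 for Prl and -0.57 for Gh, and with array weights -0.88 and -0.56. Both adjusted p-values were 1 by limma. No probe set was called here (0%), 0 of 9 members were under an unadjusted 0.05, and 4.24% of all probe sets were. The intervals leave room for both a large reduction and no difference.

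In BACHD vs. WT at 2 months, Prl averaged 8.31 ± 2.73 in BACHD mice and 8.63 ± 2.89 in WT mice (SD, n = 6 each). The differences were -0.32 for Prl (95% interval -3.39 to 2.76), -0.57 for Gh (-2.95 to 1.81), -0.35 for Cga (-1.87 to 1.17) and -0.31 for Gnrhr (-0.85 to 0.23). Differences were below 0 for 8 of 9 members, while the median of all probe sets was -0.03. Without WT replicate 5 they turned to 0.67 for Prl, 0.38 for Gh, 0.19 for Cga and 0.22 for Lhb. Limma called 0 of 9 (background 0%), and 0 of 9 were under an unadjusted 0.05 (background 4.09%).

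In BACHD vs. WT at 10 months, the difference of Cga was the largest of all 34760 probe sets in size. Cga averaged 9.22 ± 1.52 in BACHD mice (n = 5) and 7.56 ± 1.27 in WT mice (SD, n = 3), a log2 fold change of 1.66 (SE 0.90, 95% interval -0.41 to 3.73), or 3.16-fold. Its limma p was 0.102 and its adjusted p 0.997, it ranked 3400 by p, and the exact permutation p was 0.161. Without WT replicate 1 the difference was 0.93, and over all mice left out in turn it stayed between 0.93 and 2.24.

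The beta subunit genes and the receptor gene Gnrhr had smaller differences than Cga at 10 months. Fshb differed by 0.30 (95% interval -0.28 to 0.87) and ranked 1055 of 34760 by size. Lhb differed by 0.17 (-0.17 to 0.51), Tshb by 0.07 (-0.18 to 0.33) and Gnrhr by 0.12 (-0.04 to 0.28), and 8 of 9 members were above 0. Prl differed by 0.26 (-3.49 to 4.01), which became -0.68 without BACHD replicate 2 and 1.91 without WT replicate 3. Limma called 0 of 9 (background 0%) and 0 of 9 were under an unadjusted 0.05 (background 4.55%). The genotype difference at 10 months minus that at 2 months was 2.01 for Cga (SE 1.21). In limma its p was 0.112 and its adjusted p 1, and 0 of 9 members were called in that test (background 0%) or under an unadjusted 0.05 (background 2.62%).

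**Figure D5:**
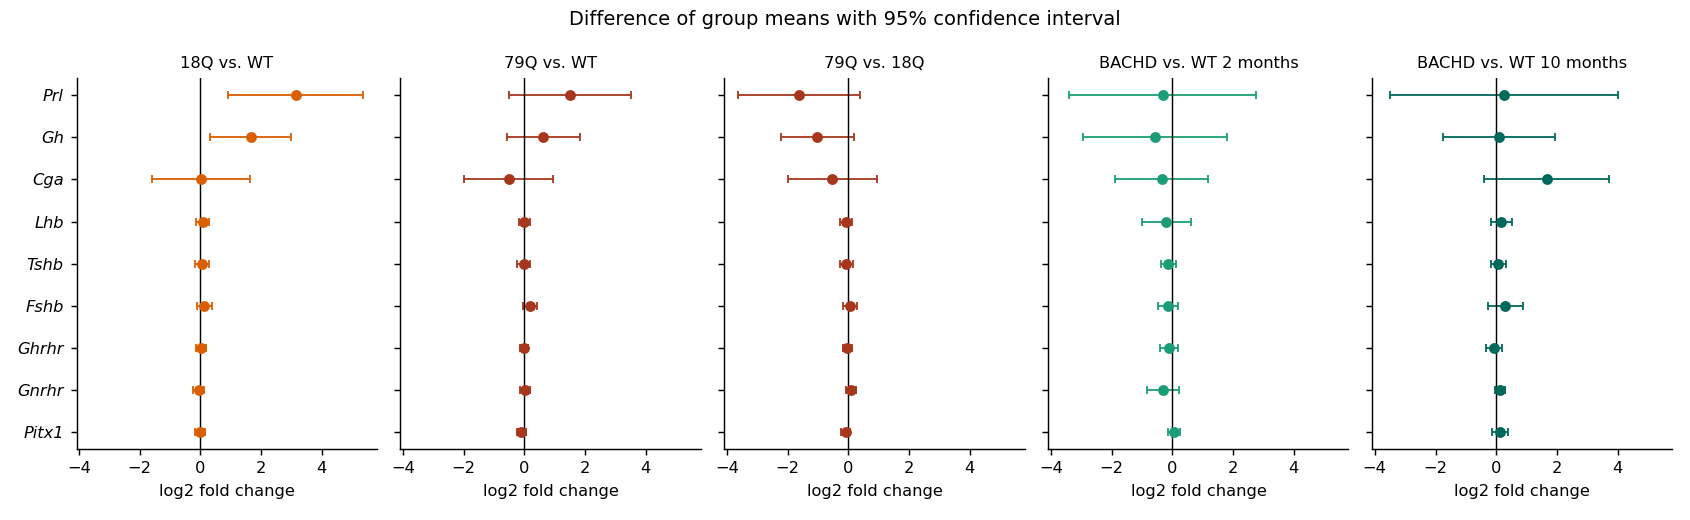
Log2 fold change of the 9 genes in each comparison, first named group minus second, with 95% confidence intervals from limma, on 1 common horizontal axis. Only Prl and Gh in 18Q vs. WT have intervals that leave out 0 (0.91 to 5.35 for Prl), before adjustment for the number of probe sets.

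Markers of the tissue around the pituitary stalk were set beside Cga, as the mean of each of 6 marker lists. The relations of these lists with Cga and with Prl were not planned in advance. The 9 tanycyte and median eminence markers had an r with Cga of 0.828 in the AAV experiment (permutation p adjusted over 18 relations 0.00216, rho 0.771, r without the 2 arrays farthest from the median of Cga 0.748). At 2 months r was 0.743 (adjusted permutation p = 0.0235, rho 0.713 with an adjusted p of 0.0883, r without 2 arrays 0.876), and at 10 months 0.806 (adjusted p = 0.070 by exact permutation, rho 0.667). The 9 hypothalamus markers had an r of 0.759 in the AAV experiment (adjusted permutation p = 0.00441, rho 0.730), 0.127 at 2 months and 0.134 at 10 months. The other 4 marker lists did not pass the threshold with Cga in any set, though some came near. The meningeal fibroblast markers had an r of 0.803 at 10 months (adjusted p = 0.097 by exact permutation) and 0.606 at 2 months (adjusted permutation p = 0.097), and the thalamus markers -0.634 in the AAV experiment (adjusted permutation p = 0.054). The pars tuberalis markers had an r of 0.550 in the AAV experiment (adjusted permutation p = 0.087, rho 0.408), 0.101 at 2 months and 0.083 at 10 months. Whether any list differed from another in its r with Cga was not tested. With Prl at 2 months the tanycyte and median eminence markers had an r of 0.479 (adjusted permutation p = 0.728, rho 0.308), and whether this differed from their r with Cga was not tested. At 10 months 8 of 9 tanycyte and median eminence markers were above 0 in BACHD vs. WT (median 0.16, 3 of 9 at an unadjusted p under 0.05 by limma against a background of 4.55%, 0 called), with a log2 summed level of 11.6 to 11.8 in BACHD mice and 11.3 to 11.7 in WT mice. Of the pars tuberalis markers, 3 of 4 were below 0 in that comparison (median -0.10, 1 of 4 at an unadjusted p under 0.05 by limma, background 4.55%, 0 called). The part of these tissues in the Cga values was not tested.

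Markers of neighbouring tissue also differed between single arrays at 2 months. Choroid plexus markers had a log2 summed level of 10.3 to 11.6 in BACHD mice and 10.5 to 14.1 in WT mice, with 9 of 9 genes below 0 (median -0.34), 0 called by limma and 0 at an unadjusted p under 0.05. Thalamus markers ranged between 11.3 and 13.3 in BACHD mice and between 11.4 and 13.2 in WT mice, with 8 of 8 below 0 (median -0.31), 0 called and 0 at an unadjusted p under 0.05. Their mean had an r with Prl at 2 months of 0.168 for choroid plexus (permutation p = 0.573, rho 0.224) and -0.055 for thalamus (permutation p = 0.867, rho -0.035), each with an adjusted p of 0.917. The pars tuberalis markers were below 0 for 4 of 4 genes in 79Q vs. WT (median -0.19, 0 called by limma, 2 of 4 at an unadjusted p under 0.05, background 14%).

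Genes around the pituitary axis were taken from lists chosen with earlier results of these data known. Measured were 9 further pituitary transcription factors, 8 pituitary receptors for hypothalamic factors and 9 other pituitary peptides and secretory genes. Also measured were 11 hypothalamic releasing and inhibiting factors and 9 receptors and targets of pituitary hormones. Of all these genes limma called 0 in any comparison, where 0% to 2.11% of all probe sets were called. Between 0 and 6 genes of a list were at an unadjusted p under 0.05, where 2.62% to 14% of all probe sets were. In 79Q vs. WT all 11 releasing and inhibiting factors were below 0 (median -0.28, 6 of 11 at an unadjusted p under 0.05), against a median of -0.02 and a share of 14% over all probe sets. In 79Q vs. 18Q, Th and Ddc, enzymes of dopamine synthesis, differed by -0.61 (SE 0.17) and -0.48 (SE 0.14), both with an adjusted p of 1 by limma. Dopamine is the main inhibitor of prolactin release. A link of these genes to Prl, which was also lower in 79Q mice in that comparison (log2 fold change -1.63), was not tested.

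In 79Q vs. WT, Trhr, the receptor for thyrotropin-releasing hormone, differed by -0.34 (adjusted p = 0.076), and the neuropeptide gene Gal by -0.43 (adjusted p = 0.112) in limma. Ghr, the growth hormone receptor, differed by -0.22 (adjusted p = 0.256). Socs3, an inhibitor of cytokine receptor signalling, differed by 0.22 in 18Q vs. WT (adjusted p = 0.314). Among the pituitary transcription factors, Tbx19 differed by -0.23 in 79Q vs. WT (adjusted p = 0.221 by limma). Gata2 differed by -0.19 in 79Q vs. 18Q (SE 0.05) and was not called. Of the 9 hypothalamus markers, all were below 0 in 79Q vs. WT and 5 were at an unadjusted p under 0.05 (background 14%). Limma called 1 of 9 (background 2.07%), namely Hdc, the histamine-synthesizing enzyme, whose log2 fold change was -0.81 (SE 0.14) at an adjusted p of 0.0037 by limma. The hypothalamus marker means lay between 10.0 and 10.9 over all arrays, so that every array carried hypothalamic transcripts.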

How the data were processed

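RNA of hypothalami was hybridized to Affymetrix Mouse Gene ST arrays after an RNA integrity check (minimum RIN of 7). The authors deposited log2 intensities computed with RMA, in which background is corrected, arrays are quantile normalized and probes are summarized by median polish (affy 1.70.0, limma 3.48.3 and R 4.1.1 per the labels). Quantile normalization forces arrays of a set to a like distribution, so levels are relative within a set. Values identical between arrays marked the sets: pairs within a set shared 16 to 105 values, pairs across sets 0. Array medians were 7.16 to 7.46. The number of arrays limits the precision, and these values carry no detection call.

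Of the 34760 probe sets, 21640 had 1 gene symbol in the platform annotation, 1321 had several and 11799 were not listed. Each gene was read from its single-symbol probe set with the highest mean. All probe sets entered limma 3.58.1 (R 4.3.3; lmFit, contrasts, eBayes), with 1 mean per group, 1 fit per set, a fit of 20 BACHD and WT arrays for age by genotype, and Benjamini-Hochberg adjustment over all probe sets at 0.05. The test was checked on simulated data. Relations used Pearson r and Spearman rho of group-centred values with 100000 permutations within groups, or all of them for 8 or fewer arrays (numpy 2.4.6, scipy 1.17.1, pandas 2.3.3). A gap above 33.3% of the range was taken to separate clusters. Named were all members, the 10 genes most like Prl and, chosen after the values were seen, the 5 most like Cga. In each gene list a rule picked the genes called or otherwise the 2 with the smallest p, and only some of these are named. The members and lists were chosen with earlier results of these data known. Relations of the marker lists with Prl and Cga were not planned in advance.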

Additional observations from a re-analysis of the deposited data

Results flagged for a closer look

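In 54 combinations of gene and group with 4 to 10 mice, the gap of the highest or lowest mouse to its nearest neighbour was compared with the range of the group by Dixon's criterion, and 10 values from 4 mice stood apart. Chance alone would mark about 1 in 20. Of the 10 values, 5 belonged to WT replicate 5 of 2 months and 3 to BACHD replicate 4 of 2 months, so they are not independent.

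WT replicate 5 at 2 months had Cga 11.99 (the others 8.11 to 9.42), Lhb 10.55 (7.92 to 8.33), Ghrhr 8.20 (7.47 to 7.70), Gnrhr 6.90 (5.10 to 5.43) and Pitx1 7.05 (6.52 to 6.72). BACHD replicate 4 at 2 months had Gh 11.78 (the others 6.78 to 8.50), Lhb 8.83 (8.13 to 8.34) and Gnrhr 5.67 (5.10 to 5.28). BACHD replicate 2 at 10 months had Gh 9.64 (6.68 to 7.48). Replicate 4 of 79Q had Gnrhr 5.72 (5.14 to 5.38). In all 10 cases the mouse was above the rest of its group.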

How the results depend on the processing

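The alternatives were leaving out each mouse, centring arrays on their medians, quantile normalization of all arrays together, array weights, eBayes with trend and robust fitting, only brighter probe sets, only the 2 groups compared, and the replicate number as a block. Over the members' differences and these alternatives, leaving out 1 mouse kept the direction and the side of the threshold in 625 values, turned 58 and made 1 pass. The other alternatives kept 310 and turned 16. The members called stayed at 0 in each comparison except 18Q vs. WT, where leaving out 1 mouse gave 0 to 1 (Prl, without 18Q replicate 6). The direction of Prl and Gh in the 3 AAV comparisons, and of Cga in BACHD vs. WT at 10 months, held in every alternative run.

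With 1 mouse left out, differences that turned spanned these ranges. In 18Q vs. WT, Cga lay between -0.46 and 0.53, Tshb between -0.033 and 0.090, Ghrhr between -0.016 and 0.063, and Pitx1 between -0.052 and 0.028. In 79Q vs. WT, Lhb lay between -0.035 and 0.056, Tshb between -0.098 and 0.026, Ghrhr between -0.044 and 0.035, and Gnrhr between -0.028 and 0.054. In 79Q vs. 18Q, Ghrhr lay between -0.064 and 0.0032. In BACHD vs. WT at 2 months, Prl lay between -1.10 and 0.67, Gh between -1.25 and 0.38, Cga between -0.70 and 0.19, and Lhb between -0.31 and 0.22. At 10 months, Prl lay between -0.68 and 1.91, Gh between -0.46 and 0.86, and Ghrhr between -0.18 and 0.063. In age by genotype, Prl lay between -0.41 and 2.22, Gh between -0.29 and 1.43, Lhb between -0.044 and 0.48, Ghrhr between -0.063 and 0.18, and Pitx1 between -0.015 and 0.15.

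Centring on medians turned Cga and Ghrhr in 18Q vs. WT to -0.021 and -0.012, Lhb in 79Q vs. WT to -0.019, and Ghrhr and Pitx1 in age by genotype to -0.016 and -0.0045. Joint quantile normalization turned Ghrhr in 18Q vs. WT to -0.011, Lhb in 79Q vs. WT to -0.0054, and Ghrhr and Pitx1 in age by genotype to -0.017 and -0.013. Array weights turned Pitx1 in 18Q vs. WT to 0.0084, Lhb in 79Q vs. WT to -0.021, and Prl and Cga in BACHD vs. WT at 2 months to 0.088 and 0.023. The cause was not tested.

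The replicate numbers did not pair the mice (deviations of same-numbered arrays correlated between -0.31 and 0.28). With the number as a block, Prl was 3.83 in 18Q vs. WT and -2.49 in 79Q vs. 18Q, and 0 members were called in any comparison. The block turned Ghrhr in 18Q vs. WT to -0.014, Tshb in 79Q vs. WT to 0.021 and Tshb in BACHD vs. WT at 10 months to -0.0010.

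Without the 2 arrays farthest from the median of Prl, r with Prl at 2 months became -0.0090 for Cga, -0.072 for Tshb, -0.032 for Fshb, -0.27 for Ghrhr, -0.35 for Gnrhr and -0.32 for Pitx1. In BACHD mice alone it became -0.19 for Lhb, -0.17 for Tshb, -0.57 for Fshb and -0.67 for Gnrhr (rho -0.086). In WT mice alone it became -0.29 for Cga, -0.39 for Lhb, -0.20 for Tshb, -0.94 for Ghrhr and -0.39 for Gnrhr. Below the gap of the AAV experiment it became 0.22 for Lhb, 0.12 for Tshb, 0.056 for Gnrhr and 0.38 for Pitx1. For Cga, with alternatives chosen after seeing the data, r with Pitx1 in the AAV experiment became -0.093, and with Tshb at 10 months rho was 0.12.

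A mean over several probe sets of a gene, another background correction, and slide or scan as a block were not run, since each member had 1 probe set and raw array files were not used here.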
